A study of Mus musculus with 18 samples.

Results

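The genes described here are 37 genes of DNA replication and S phase in mouse tumors, taken by symbol from the tumor count table of 43346 genes. They were read in 12 tumors in 4 groups of 3 and in 3 samples of the SB1 cell line. All 37 passed the filter on low counts and were tested among 18318 genes. They fall into 8 roles: licensing of origins (10 genes), helicase activation (4), sliding clamp and loader (5), polymerases (5), strand joining (2), nucleotide supply (4), G1/S regulators (3) and copying of chromatin (4).

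Every tumor group carried the same activated kinase, myr-AKT, and differed in the form of YAP given with it. YAP is a transcriptional co-activator that Hippo signalling restrains, and S127A removes a serine through which that pathway holds it in the cytoplasm. YAP-S tumors received YAP S127A, and YAP-SY tumors received YAP S127A with Y357F, which replaces a tyrosine. Within each form the labels divide tumors into CCA (taken here as cholangiocarcinoma, a bile duct cancer) and mixed. The YAP-S CCA group comprised tumors 3, 4 and 5, and the YAP-SY CCA group tumors 1, 6 and 8. The YAP-S mixed group comprised tumors 2, 7 and 9, and the YAP-SY mixed group tumors 3, 5 and 9. Where values follow, they stand in that order. SB1 is a single cell line whose genotype label is that of YAP-S CCA; SY1, the line labelled as YAP-SY CCA, was not analysed here. The study's title asks whether the tyrosine of YAP is needed in cholangiocytes and in hepatocytes. The promoters that drove the transgenes, the host strain, the age and the way the constructs were delivered are not given in the sources used here. Nothing beyond the tumor number says that tumors came from separate animals, so p-values measure the spread between these samples.

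DNA is copied once per cell cycle because origins are prepared in one phase and fired in the next. The origin recognition complex with Cdc6 and Cdt1 loads the Mcm2 to Mcm7 ring in G1. Cdc45, the GINS complex and Mcm10 then turn the ring into a moving helicase, and polymerases, clamp, clamp loader and ligase follow it. Transcription of most of these genes rises at the G1/S border under E2F factors, which the RB family represses. In adult liver most hepatocytes rest and hold little of this machinery, while regenerating liver and liver tumors express it.

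The sequence before the start of several of these genes carries words typical of E2F sites. Words of 8 letters were searched on both strands: TTTCCCGC, TTTCGCGC, TTTGCCGC and TTTGGCGC, some of which overlap when read from opposite strands. The windows were RefSeq promoters of build GRCm38.p6, from 250 bases before to 50 bases after the annotated start. Of 37 genes, 31 had a window; Ccne2, Gins1, Gins2, Mcm4, Pole and Rfc2 had none. At least 1 word was present in 12 of the 31 (38.7%), against 704 of 27025 genes with a window (2.6%). The 12 were Cdc6, Cdt1, Lig1, Mcm3, Mcm5, Mcm6, Mcm7, Orc1, Pola1, Pold1, Rfc3 and Uhrf1. In 8 of them a word began before the RefSeq start of the window, and in Cdt1, Lig1, Mcm3 and Pold1 the words lay only after it. That start can differ from the gene's end in the count table. By the count table's positions, only the words of Mcm5, Mcm6 and Pola1 lay before the gene. Those of Cdc6, Mcm7, Orc1, Rfc3 and Uhrf1 lay inside it. The window of E2f1, which held no word, also lay inside its gene. A gene with more than 1 window, such as Lig1, Mcm7 or Uhrf1, was counted if any of its windows held a word. The CCAAT box, searched on both strands, was in 61.3% of these genes' windows and in 41.1% of all genes. A matching word is a description of the sequence and not a mapped site. The sequences below show Mcm5 and Mcm6, 2 ring subunits with words before the start, beside Mcm10 and Tk1, whose expression departed from that of the other genes. These examples do not stand for the rest: of the 19 genes with a window and no word, 11 fell in YAP-SY CCA tumors, as given below. Each sequence is the 250 bases before the start, written 5′ to 3′ on the gene's strand, with E2F words in capitals. They lie at chr8:75109259-75109508 (plus strand, Mcm5), chr1:128359706-128359955 (minus, Mcm6), chr2:5012792-5013041 (minus, Mcm10) and chr11:117826015-117826264 (minus, Tk1).
Mcm5: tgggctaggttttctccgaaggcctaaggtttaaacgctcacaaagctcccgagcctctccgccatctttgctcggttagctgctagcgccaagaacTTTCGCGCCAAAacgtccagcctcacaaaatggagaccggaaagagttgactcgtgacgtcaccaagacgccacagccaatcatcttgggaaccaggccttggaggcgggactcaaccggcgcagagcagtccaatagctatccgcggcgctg
Mcm6: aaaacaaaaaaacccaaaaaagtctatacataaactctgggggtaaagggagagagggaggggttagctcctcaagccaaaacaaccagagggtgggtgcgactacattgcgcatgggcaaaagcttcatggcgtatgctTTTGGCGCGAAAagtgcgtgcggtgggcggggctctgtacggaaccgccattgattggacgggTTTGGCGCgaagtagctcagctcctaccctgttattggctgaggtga
Mcm10: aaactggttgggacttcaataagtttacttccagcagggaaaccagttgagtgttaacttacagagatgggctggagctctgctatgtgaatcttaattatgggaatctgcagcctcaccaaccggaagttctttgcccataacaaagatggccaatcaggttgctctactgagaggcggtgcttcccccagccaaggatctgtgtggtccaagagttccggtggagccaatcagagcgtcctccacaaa
Tk1: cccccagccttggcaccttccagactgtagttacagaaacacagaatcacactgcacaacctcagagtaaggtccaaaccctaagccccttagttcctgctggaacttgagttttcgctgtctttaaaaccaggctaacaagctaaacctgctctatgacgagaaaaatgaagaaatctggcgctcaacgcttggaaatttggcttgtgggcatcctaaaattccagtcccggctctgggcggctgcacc

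Mcm5 holds 2 words that overlap on opposite strands, and Mcm6 holds 3, of which 2 overlap. In Mcm3 both words lie just after the start, at chr1:20820267-20820293 on the minus strand, so only that stretch is shown.
Mcm3: GCGGGAAAacttgggaagtTTTGGCGC

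The tumors were sequenced to 30656499 to 130035221 counts each, and the SB1 samples to 25341968 to 30541185. Counts were seen for 18207 genes in YAP-SY CCA tumor 1 and for 20440 to 24391 genes in each of the remaining tumors. Values are CPM, counts scaled to a common library total, of libraries scaled by the trimmed mean of M-values (TMM). These scaling factors were 1.145 to 1.295 in YAP-S CCA, 0.7753 to 0.8323 in YAP-SY CCA and 0.9309 to 1.087 in the mixed tumors. The tissue label says only tumor, and markers were read to check the groups. Summed over 6 hepatocyte markers, CPM ran from 43871 to 52184 in YAP-S CCA, 127920 to 150420 in YAP-SY CCA, 73748 to 80663 in mixed tumors with YAP-S and 81374 to 105400 in those with YAP-SY. Summed over 6 cholangiocyte markers it ran from 7437.2 to 10804, 2750.5 to 4168.3, 9412.1 to 10166 and 4262.8 to 16370 in the same order. So tumors labelled YAP-SY CCA carried the lowest bile duct marker sums and the highest hepatocyte sums of the 4 groups.

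Tumors with YAP-SY had lower RNA levels of most replication genes than tumors with YAP-S when both were CCA. Of the 37 genes, 27 fell, 1 rose (Mcm10) and 9 did not pass the test. Across all tested genes, 20.8% were called lower and 18.3% higher, 39.1% in all. The median log2 fold change (YAP-SY over YAP-S) was -0.97 for the 37 genes and -0.00112 over all genes. Calls rest on edgeR's quasi-likelihood test over all 18318 genes with Benjamini-Hochberg adjustment and a threshold of 0.05. The values of the 2 groups did not overlap for 32 genes that were lower in YAP-SY and for 1 that was higher, against 28.3% and 24.3% of all genes. The summed CPM of the 37 genes was 823 ± 61.2 in the YAP-S CCA group and 482 ± 53.7 in the YAP-SY CCA group (SD, n = 3 each). In the mixed groups it was 729 ± 191 with YAP-S and 691 ± 83.7 with YAP-SY (SD, n = 3 each). With library size alone as the scaling, the median over all genes moved by -0.565 and that of the 37 genes to -1.54. The split over all genes then went to 8064 lower and 760 higher, and 36 of the 37 genes were called, 35 of them lower. Differences between the 37 genes and the rest are therefore read relative to the median of all genes.

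Cell markers moved between the CCA groups as well. All 6 hepatocyte markers rose, 5 of 6 cholangiocyte markers fell, 5 of 6 fibroblast markers fell and 4 of 8 leukocyte markers fell in YAP-SY. Of 4 endothelial markers 1 rose and 1 fell, and of 3 erythroid markers tested 1 rose. Summed fibroblast marker CPM was 1773.0 to 2277.4 in the YAP-S CCA group, 411.1 to 576.84 in the YAP-SY CCA group, and summed leukocyte CPM was 193.88 to 311.81 and 129.78 to 194.63. In the mixed tumors fibroblast sums were 757.92 to 987.75 with YAP-S and 578.43 to 909.77 with YAP-SY, and leukocyte sums 183.11 to 241.57 and 198.66 to 318.71. No defining marker of hepatocytes, bile duct or blood cells was at 0 in these tumors among those read (Alb, Krt19, Epcam and Ptprc). The part of these markers in the replication gene differences was not tested. In bulk tumors, fewer cells of a type and less RNA per cell cannot be told apart.

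**Figure D1:**
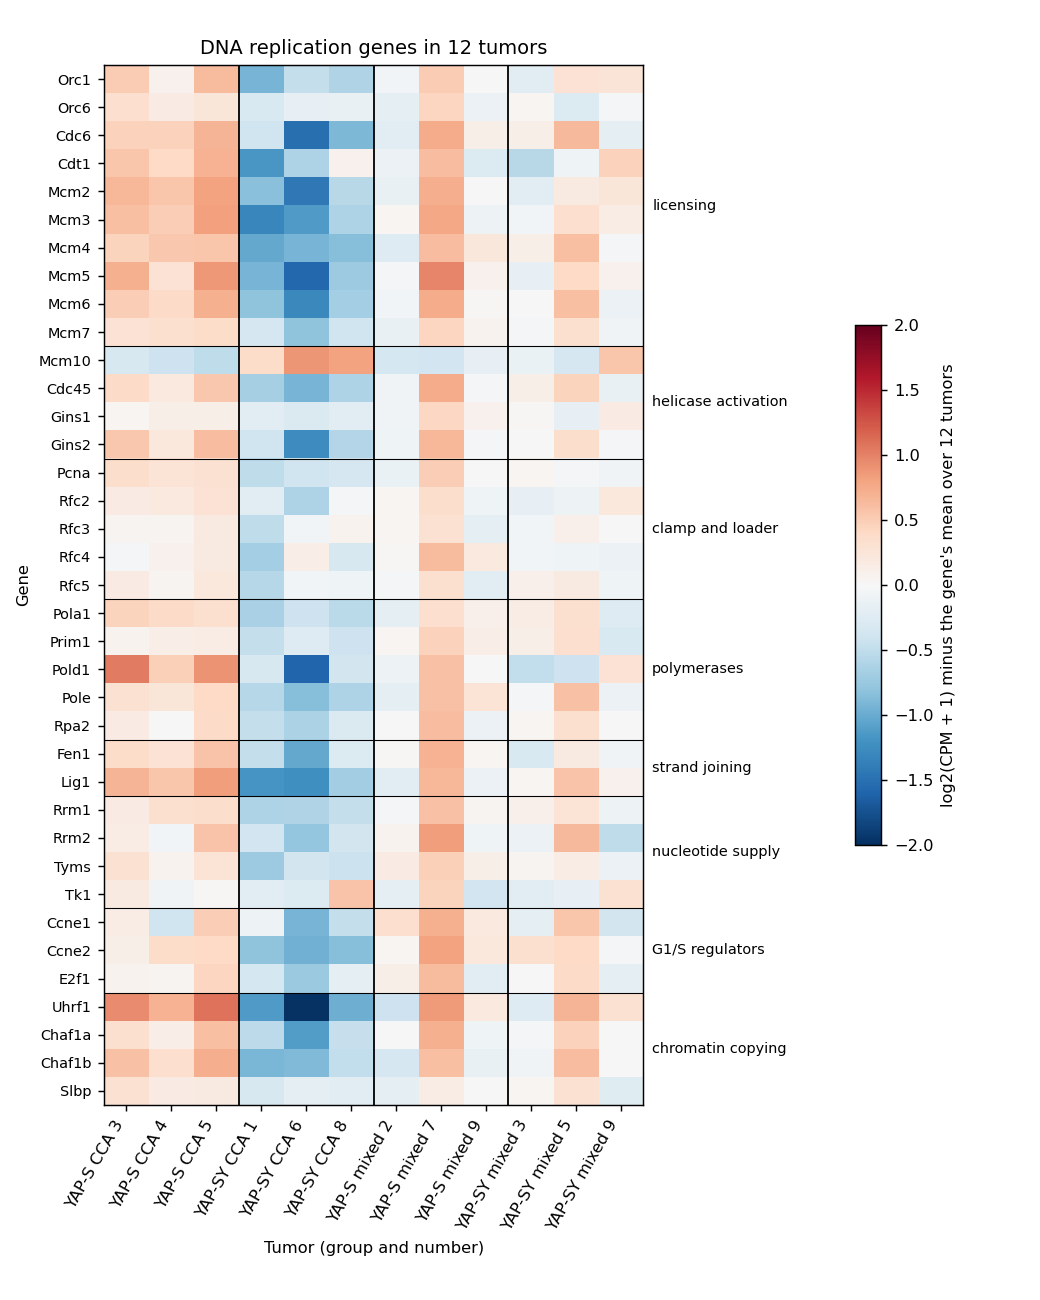
Values of the 37 genes (rows, grouped by role) in 12 tumors (columns, by group and tumor number); color is log2(CPM + 1) minus the gene's mean over the 12 tumors, red above and blue below. The 3 YAP-SY CCA columns are blue in nearly every row but that of Mcm10, and YAP-S mixed tumor 7 is the reddest column, with the highest value for 25 genes.

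Most licensing genes fell. In CCA, 9 of 10 did, with a median log2 fold change of -1.61 over the role, and Orc6 did not pass. The ring subunits Mcm2, Mcm3, Mcm4, Mcm5, Mcm6 and Mcm7 fell by 1.68, 1.72, 1.53, 1.76, 1.47 and 0.84 on the log2 scale. Cdc6 and Cdt1, the loaders of the ring, fell by 1.76 and 1.29, and Orc1, a subunit of the origin recognition complex, fell by 2.94. Mcm3 had the smallest p of the role. It stood at 35.3, 32.6 and 41.0 CPM in the YAP-S CCA group and at 8.65, 9.92 and 14.5 CPM in the YAP-SY CCA group. In mixed tumors it was at 23.4, 39.7 and 21.3 CPM with YAP-S and at 22.0, 29.1 and 25.3 CPM with YAP-SY. All 3 YAP-SY CCA tumors lay below all 9 others. Mcm3 was 3.30-fold lower in YAP-SY CCA than in YAP-S CCA (log2 fold change -1.72, SE 0.251, edgeR adjusted p = 0.00039). Orc6, another subunit of the origin complex, had the largest p of the role. It was at 10.9, 9.57 and 10.2 CPM in the YAP-S CCA group and at 6.68, 7.46 and 7.51 CPM in the YAP-SY CCA group. Mixed tumors held 7.39, 11.7 and 7.70 CPM of Orc6 with YAP-S and 8.71, 6.78 and 8.33 CPM with YAP-SY. The CCA groups did not overlap, yet the difference of -0.50 (SE 0.196) missed the threshold with an edgeR adjusted p of 0.0589. Orc6 passed in 6 of 21 other settings: DESeq2 (adjusted p = 0.0396), library size alone, upper quartile scaling, the stricter filter, a fit of the CCA groups alone (edgeR adjusted p = 0.0473) and without YAP-S mixed tumor 7 (edgeR adjusted p = 0.0334). Orc6 shares 171 exon bases with Vps35 on the other strand, and whether the counting used strand is not given in the sources used here.

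Orc1 and Cdt1 carry limits of depth and of single tumors. Orc1 had 167, 87 and 83 counts in YAP-S CCA and 0, 13 and 9 in YAP-SY CCA, which is 1.69, 1.01 and 1.94 against 0, 0.363 and 0.250 CPM. Its size is therefore poorly fixed. Cdt1 was at 6.35, 5.55 and 7.07 CPM in the YAP-S CCA group and at 1.22, 2.26 and 4.28 CPM in the YAP-SY CCA group, a 3.50-fold spread and the widest of that group among the 36 genes with no tumor at 0. Its call (edgeR adjusted p = 0.0353) was lost on dropping either tumor 3, 4 or 5 of YAP-S CCA or tumor 1 or 6 of YAP-SY CCA, with adjusted p from 0.0546 to 0.105, and with limma-voom (adjusted p = 0.0562).

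The Mcm ring is a protein complex with equal copies of its 6 subunits, and the RNA levels of their genes were set side by side by gene length. In YAP-S CCA, mean RPKM (CPM divided by the gene length in kilobases) ran from 8.27 for Mcm2 to 13.2 for Mcm6, a ratio of 1.60. In YAP-SY CCA they ran from 2.57 for Mcm2 to 6.31 for Mcm7, a ratio of 2.45. The ratios were 1.84 and 1.94 in mixed tumors with YAP-S and YAP-SY and 1.58 in SB1 cells. Mcm7 had the highest of the 6 levels in YAP-SY CCA only among the 4 tumor groups; Mcm6 led in the other 3. Mcm7 shares exon bases with Ap4m1, Cops6 and the miRNA genes Mir25 and Mir93. The length used was 3370 bases for Mcm2 and 3422 for Mcm5, against 6956 and 3993 for their joined exons in GENCODE M21. For Mcm3, Mcm4, Mcm6 and Mcm7 both lengths were equal. The order of the 6 and the ratios depend on the lengths used.

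Among helicase activation genes, Cdc45, a subunit of the active helicase, fell by 1.32 and Gins2 of the GINS complex fell by 1.43 on the log2 scale in CCA. Mcm10, which helps to open the loaded ring and is not part of it, went the other way. It was at 46.2, 43.3 and 40.5 CPM in the YAP-S CCA group and at 74.9, 108 and 101 CPM in the YAP-SY CCA group. In mixed tumors it was at 45.3, 44.2 and 51.4 CPM with YAP-S and at 52.8, 45.8 and 85.2 CPM with YAP-SY. The CCA groups did not overlap, and YAP-SY mixed tumors 3 and 9 also lay above all 6 YAP-S tumors. Mcm10 was 2.19-fold higher in YAP-SY CCA (log2 fold change 1.13, SE 0.211, edgeR adjusted p = 0.00154). The call held in all 21 other settings tried, with log2 fold changes from 0.56 (library size alone) to 1.28. Gins1, another GINS subunit, had the largest p of the role, with 4.43, 4.73 and 4.73 CPM in the YAP-S CCA group and 3.56, 3.30 and 3.56 CPM in the YAP-SY CCA group. Its mixed values were 4.0, 5.99 and 4.60 CPM with YAP-S and 4.36, 3.71 and 4.90 CPM with YAP-SY. The CCA groups were apart, but the difference of -0.41 (SE 0.202) did not pass (edgeR adjusted p = 0.123). Gins2 shares 2758 exon bases with Gse1 and Cdc45 shares 209 with Ufd1, both on the other strand.

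By length, Mcm10 changed place among the 37 genes. Its mean level was 5.64 RPKM in YAP-S CCA, rank 15 of 37, and 12.3 RPKM in YAP-SY CCA, rank 3 after Pcna (14.4 RPKM) and Rfc2 (12.7 RPKM). In mixed tumors it was 6.11 RPKM with YAP-S and 7.96 RPKM with YAP-SY, ranks 11 and 8. The ranks depend on the gene lengths used, which for Rfc2 was 1518 bases, against 6303 for its joined exons in GENCODE M21. Mcm10 overlaps no other annotated gene in GENCODE M21, and its position in the count table, chr2:4989714-5012791, equals that annotation.

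**Figure D2:**
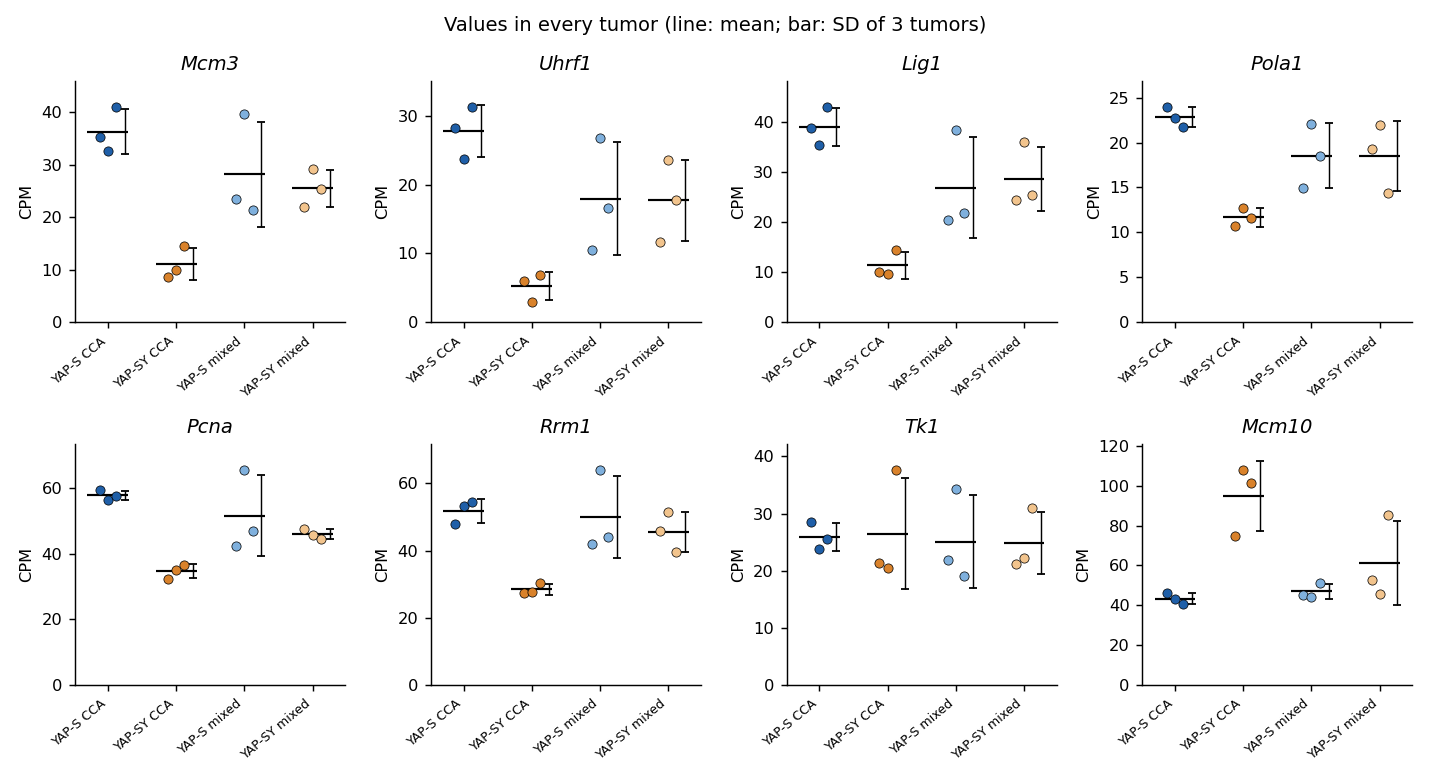
CPM of 8 genes (panels) in each of 12 tumors (points) by group; horizontal lines are group means and bars the SD of 3 tumors. The YAP-SY CCA points lie below the YAP-S CCA points for Mcm3, Uhrf1, Lig1, Pola1, Pcna and Rrm1, overlap them for Tk1 and lie above them for Mcm10.

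The sliding clamp and 1 of the 4 loader subunits among the 37 genes fell. Rfc1 of the loader was read with the other replication factors. Pcna, the ring that holds polymerases on DNA, was at 59.3, 56.4 and 57.7 CPM in the YAP-S CCA group and at 32.4, 34.9 and 36.6 CPM in the YAP-SY CCA group. Mixed tumors held 42.4, 65.7 and 46.9 CPM with YAP-S and 47.7, 45.9 and 44.5 CPM with YAP-SY. YAP-SY CCA was below every other tumor, and the fall was 1.67-fold against YAP-S CCA (log2 fold change -0.74, SE 0.149, edgeR adjusted p = 0.00229). Of the loader subunits, Rfc2 fell by 0.51, while Rfc3, Rfc4 and Rfc5 had log2 fold changes of -0.27, -0.39 and -0.39 that did not pass. Rfc3, with the largest p, was at 11.6, 11.5 and 12.7 CPM in the YAP-S CCA group and at 7.48, 10.7 and 11.6 CPM in the YAP-SY CCA group. Its mixed values were 11.4, 14.0 and 9.58 CPM with YAP-S and 10.6, 12 and 11 CPM with YAP-SY. YAP-SY CCA tumor 1 was the lowest of the 12 for Rfc3, and tumor 8 reached into the YAP-S CCA range (edgeR adjusted p = 0.281). The Rfc2 call (edgeR adjusted p = 0.0386) was lost on dropping any 1 of tumors 3, 4 and 5 of YAP-S CCA, tumors 1 and 6 of YAP-SY CCA or tumor 2 of YAP-S mixed (adjusted p 0.0519 to 0.126). It was also lost with limma-voom (adjusted p = 0.0652) and in a fit of the CCA groups alone (edgeR adjusted p = 0.0506), 8 of 21 other settings in all. Rfc2 also shares 952 exon bases with Lat2, and Rfc4 shares 194 with Eif4a2. Rfc4 passed with library size alone and, at -0.68, without YAP-SY CCA tumor 6 (edgeR adjusted p = 0.0427).

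All 5 polymerase genes fell in CCA, by 0.55 to 1.67 on the log2 scale. Pola1, the catalytic subunit of the primer-making polymerase alpha, was at 24, 22.8 and 21.7 CPM in the YAP-S CCA group and at 10.7, 12.7 and 11.6 CPM in the YAP-SY CCA group. Its mixed values were 14.9, 22.1 and 18.5 CPM with YAP-S and 19.2, 21.9 and 14.3 CPM with YAP-SY. No YAP-SY CCA tumor reached any other tumor, and Pola1 was 1.96-fold lower than in YAP-S CCA (log2 fold change -0.97, SE 0.184, edgeR adjusted p = 0.00167). Pold1 and Pole, the catalytic subunits of polymerases delta and epsilon, fell by 1.67 and 1.07, and Rpa2, which coats single-stranded DNA, fell by 0.71. Prim1, the small primase subunit, had the largest p. It was at 12.2, 12.9 and 13.0 CPM in the YAP-S CCA group and at 8.04, 9.50 and 8.51 CPM in the YAP-SY CCA group. Mixed tumors held 11.9, 16.3 and 12.9 CPM of Prim1 with YAP-S and 12.7, 15 and 9.24 CPM with YAP-SY. The CCA groups were apart (log2 fold change -0.55, SE 0.19, edgeR adjusted p = 0.0375). That call ended on dropping any 1 of tumors 3, 4 and 5 of YAP-S CCA, tumors 1 and 8 of YAP-SY CCA or tumor 3 of YAP-SY mixed (adjusted p 0.0503 to 0.0944). The Rpa2 call ended on dropping tumor 5 of YAP-S CCA or either tumor 1 or 6 of YAP-SY CCA (adjusted p 0.0506 to 0.0808).

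Both strand joining genes fell. Lig1, the ligase that seals Okazaki fragments, had the smallest adjusted p of the 37 genes. It was at 38.8, 35.4 and 43.0 CPM in the YAP-S CCA group and at 9.97, 9.64 and 14.3 CPM in the YAP-SY CCA group. In mixed tumors Lig1 was at 20.4, 38.5 and 21.8 CPM with YAP-S and at 24.4, 36.0 and 25.3 CPM with YAP-SY. The 3 YAP-SY CCA tumors were the lowest of the 12, and the fall against YAP-S CCA was 3.45-fold (log2 fold change -1.79, SE 0.257, edgeR adjusted p = 0.000366). Fen1, the flap nuclease that trims fragment ends, was at 14.7, 13.9 and 16.9 CPM in the YAP-S CCA group and at 7.73, 4.95 and 9.04 CPM in the YAP-SY CCA group. Its mixed values were 11.3, 18.7 and 11.4 CPM with YAP-S and 8.85, 12.7 and 10.6 CPM with YAP-SY. The CCA groups of Fen1 were apart (log2 fold change -1.07, SE 0.255, edgeR adjusted p = 0.00595), while YAP-SY mixed tumor 3 reached into the YAP-SY CCA range. Fen1 shares 1909 exon bases with the antisense gene Gm10143 and Lig1 247 with Zswim9.

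Nucleotide supply was divided. Rrm1 and Tyms, which make deoxynucleotides and thymidylate, fell by 0.87 and 0.77. Rrm2, the partner of Rrm1, had a like log2 fold change of -0.77 that did not pass (SE 0.313, edgeR adjusted p = 0.0689). Rrm2 passed in 8 of 21 other settings: without YAP-S mixed tumor 7 or YAP-SY mixed tumor 5 or 9 (edgeR adjusted p 0.0314 to 0.0477), with DESeq2 (adjusted p = 0.0463), library size alone, no filter, the stricter filter and a fit of the CCA groups alone (edgeR adjusted p = 0.0181). Rrm1 was at 47.8, 53.3 and 54.3 CPM in the YAP-S CCA group and at 27.4, 27.6 and 30.3 CPM in the YAP-SY CCA group. Mixed tumors held 41.9, 64.1 and 44.0 CPM of Rrm1 with YAP-S and 45.7, 51.4 and 39.5 CPM with YAP-SY. YAP-SY CCA lay below all other tumors (log2 fold change -0.87, SE 0.165, edgeR adjusted p = 0.00171). Tk1, the thymidine kinase of the salvage route, showed no such order. It was at 28.5, 23.7 and 25.6 CPM in the YAP-S CCA group and at 21.3, 20.5 and 37.7 CPM in the YAP-SY CCA group. Mixed tumors held 21.9, 34.3 and 19.0 CPM of Tk1 with YAP-S and 21.2, 22.2 and 31.0 CPM with YAP-SY. YAP-SY CCA tumor 8 was the highest of the 12 and tumor 6 of the same group among the lowest. The Tk1 difference was 0.03 (SE 0.266, edgeR adjusted p = 0.938), its sign changed with settings from -0.53 to 0.28, and no setting called it. Tk1 shares 83 exon bases with Afmid, a gene on the other strand that was itself higher in YAP-SY CCA (log2 fold change 1.01, edgeR adjusted p = 0.00321), and the part of Afmid reads in the Tk1 value was not tested.

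Of the G1/S regulators, Ccne2 fell and Ccne1 and E2f1 did not pass. Cyclins E1 and E2 activate Cdk2 at the start of S phase, and E2f1 is an activating E2F factor. Ccne2 was at 3.91, 4.82 and 4.94 CPM in the YAP-S CCA group and at 1.59, 1.31 and 1.5 CPM in the YAP-SY CCA group. In mixed tumors it was at 3.67, 6.90 and 4.24 CPM with YAP-S and at 4.66, 4.97 and 3.47 CPM with YAP-SY. YAP-SY CCA was lowest in every tumor, 3.10-fold below YAP-S CCA (log2 fold change -1.63, SE 0.27, edgeR adjusted p = 0.000785). Ccne2 shares 609 exon bases with Ints8, whose log2 fold change was 0.32 (edgeR adjusted p = 0.0804). Ccne1 was at 3.59, 2.15 and 4.85 CPM in the YAP-S CCA group and at 2.85, 1.17 and 1.98 CPM in the YAP-SY CCA group. Its mixed values were 4.24, 5.75 and 3.72 CPM with YAP-S and 2.66, 5.11 and 2.21 CPM with YAP-SY. The CCA groups of Ccne1 overlapped, with a difference of -0.81 (SE 0.41, edgeR adjusted p = 0.136). E2f1 had a difference of -0.65 (SE 0.25, edgeR adjusted p = 0.0567) with no overlap between the CCA groups. E2f1 passed in 10 of 21 other settings. These were leaving out YAP-SY CCA tumor 8, YAP-S mixed tumor 7 or 9 or YAP-SY mixed tumor 5 (edgeR adjusted p 0.0381 to 0.0476), DESeq2 (adjusted p = 0.0405), library size alone, upper quartile scaling, no filter, the stricter filter and a fit of the CCA groups alone (edgeR adjusted p = 0.0385).

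All 4 genes for copying chromatin fell. Uhrf1, which brings the maintenance DNA methyltransferase to newly copied DNA, was at 28.3, 23.8 and 31.4 CPM in the YAP-S CCA group and at 6.0, 2.91 and 6.79 CPM in the YAP-SY CCA group. In mixed tumors it was at 10.5, 26.8 and 16.6 CPM with YAP-S and at 11.7, 23.7 and 17.8 CPM with YAP-SY. The 3 YAP-SY CCA tumors were the lowest and the fall was 5.31-fold (log2 fold change -2.41, SE 0.381, edgeR adjusted p = 0.000614). Chaf1a and Chaf1b, subunits of the histone loader CAF-1, fell by 1.17 and 1.51. In GENCODE M21 Chaf1a shares 4648 exon bases with Ubxn6 on the other strand, while the gene length in the count table was 3308 bases. Slbp, which binds the stem-loop of histone mRNAs, had the largest p. It was at 26.2, 23.6 and 24.1 CPM in the YAP-S CCA group and at 16.7, 18.6 and 18.0 CPM in the YAP-SY CCA group. Mixed values of Slbp were 18.4, 23.6 and 21.3 CPM with YAP-S and 21.7, 26.2 and 17.7 CPM with YAP-SY. The CCA groups were apart (log2 fold change -0.47, SE 0.156, edgeR adjusted p = 0.0305), and the call ended on dropping any 1 of tumors 3, 4 and 5 of YAP-S CCA or tumors 1 and 8 of YAP-SY CCA (adjusted p 0.0546 to 0.0879).

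The E2F words of the promoter windows can be set beside these calls. Of the 12 genes with a word, 11 fell in CCA and Rfc3 did not pass, with a median log2 fold change of -1.69. Of the 19 genes with a window and no word, 11 fell, Mcm10 rose and 7 did not pass, with a median of -0.74. The difference between these sets was not tested. Absence of a word says only that these letters are not in this window.

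**Figure D3:**
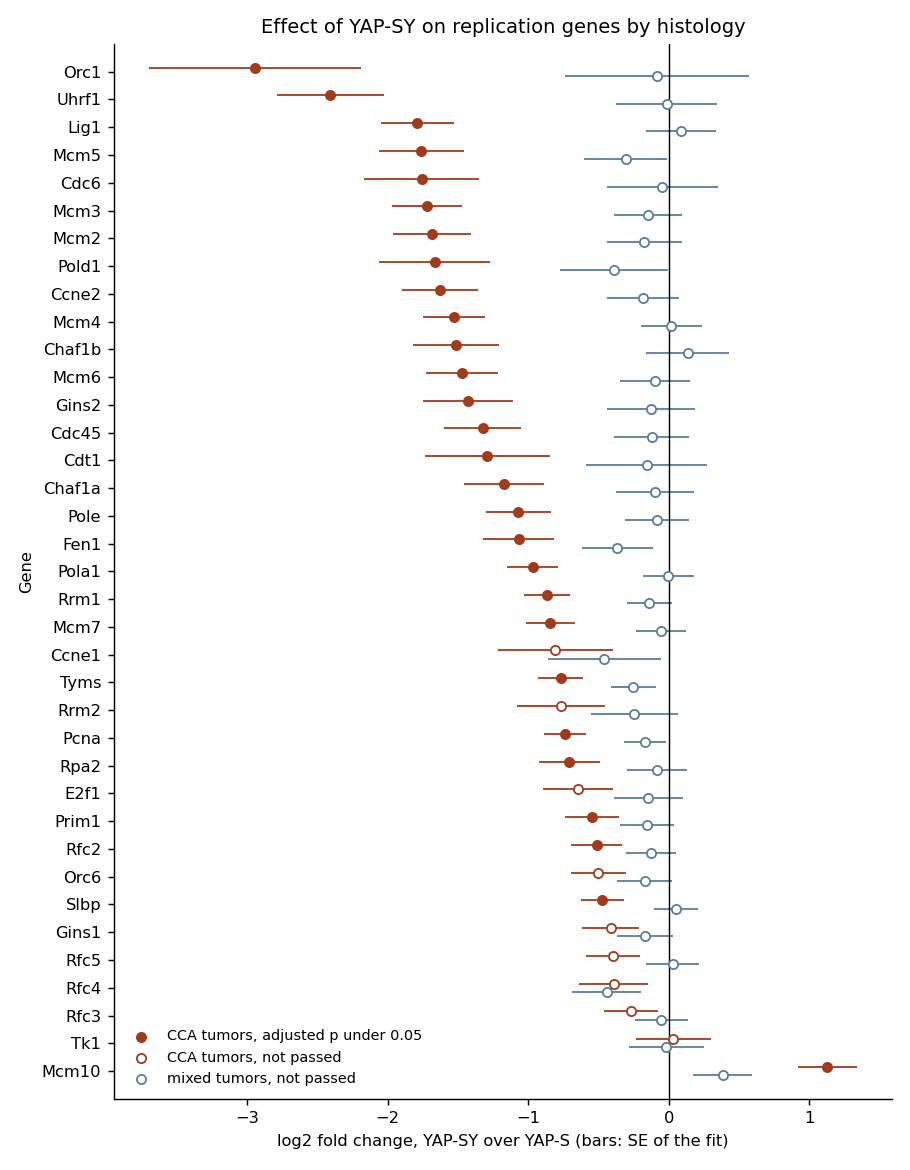
Log2 fold change of YAP-SY over YAP-S (horizontal axis) for each of the 37 genes (rows) in CCA and in mixed tumors; bars are the SE of the fit and filled points passed an adjusted p of 0.05. CCA points run from -2.94 (Orc1) to 1.13 (Mcm10), and no mixed point is filled.

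In mixed tumors no replication gene passed the same test of YAP-SY against YAP-S. Calls were 0 of 37, with 0% of all genes called. None of the 37 reached an unadjusted p of 0.05, against 551 of all genes, and the Wald test of DESeq2 called 11 genes and none of the 37. The limma-voom fit called none. The median log2 fold change of the 37 genes was -0.12, with a range of -0.46 to 0.38. That sign rested on a single tumor: without YAP-S mixed tumor 7 the median was 0.14. Only Rfc4 had groups that did not overlap, at 6.84, 10.9 and 7.80 CPM with YAP-S against 6.45, 6.29 and 6.12 CPM with YAP-SY, where 4.05% of all genes were apart in that direction and 4.3% in the other. The extremes of the mixed comparison were Ccne1 at -0.46 and Mcm10 at 0.38 (SE 0.209, edgeR adjusted p = 0.999).

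The effect of YAP-SY differed between CCA and mixed tumors for 10 of the 37 genes, all with a more negative effect in CCA. Over all genes 10.2% had a more negative and 5.02% a more positive effect in CCA, 15.2% in all. The 10 were the ring subunits Mcm2, Mcm3, Mcm4, Mcm5 and Mcm6, with Lig1, Pola1, Ccne2, Uhrf1 and Chaf1b. Lig1 had the smallest p. Its effect was -1.79 in CCA and 0.09 in mixed tumors, a difference of -1.88 (SE 0.355, edgeR adjusted p = 0.00741). The median difference over the 37 genes was -0.79. With library size alone, 4180 of all genes were called more negative and 150 more positive, and 26 of the 37 were called. Mcm10 had a difference of 0.74 (SE 0.295) that did not pass (edgeR adjusted p = 0.103), so its rise is not shown to differ between the histologies. The number of genes called was 4 without YAP-S CCA tumor 5, 4 without YAP-S mixed tumor 2, 4 without YAP-S mixed tumor 9, 5 without YAP-SY mixed tumor 5 and 19 without YAP-S mixed tumor 7. Over all genes, these fits called 1323, 1058, 1564, 1749 and 2606, against 2788 in the main fit. The median difference over the 37 genes in these fits was -0.77, -0.66, -0.76, -0.65 and -0.98. Lig1, Mcm3, Mcm4 and Uhrf1 kept their call in all 21 other settings tried. With the tumor number as a block in limma, 11 genes were called, and Ccne2 was the 1 of the 10 that was not (limma adjusted p = 0.0503).

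Averaged over both histologies, 22 of the 37 genes fell and Mcm10 rose, where 13.1% of all genes were called lower and 11.8% higher, 24.9% in all. With library size alone these became 6074 genes lower and 578 higher, and 36 of the 37 were called. Mcm3 had the smallest p (log2 fold change -0.93, SE 0.174, edgeR adjusted p = 0.00376), and Mcm10 had 0.76 (SE 0.148, edgeR adjusted p = 0.00473). All 23 were also called in CCA, with which this average shares its tumors. Without YAP-S mixed tumor 7 the count was 14, and 2764 of all genes were called, against 4555 in the main fit.

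CCA and mixed tumors of the same YAP form were compared as well. With YAP-S, 0 of the 37 genes passed, with 0% of all genes called and 3636 of all genes but none of the 37 at an unadjusted p under 0.05. The Wald test of DESeq2 called 1514 genes there and limma-voom 3609, of which 2 were replication genes, both higher in CCA. The 37 genes had a median of 0.13, and 0.37 without YAP-S mixed tumor 7. Slbp alone had groups that did not overlap, higher in CCA, where 20.2% of all genes were apart in that direction.

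With YAP-SY, CCA tumors were lower than mixed tumors for 8 genes (Ccne2, Mcm4, Lig1, Mcm3, Uhrf1, Mcm6, Rrm1 and Mcm5), where 2.7% of all genes were called lower, 0.207% higher and 2.9% in all. Ccne2 had the smallest p (log2 fold change -1.57, SE 0.27, edgeR adjusted p = 0.0182). Mcm4 had the same adjusted p with a difference of -1.26, from 23.3, 33.3 and 20.9 CPM in mixed to 10.1, 10.8 and 11.5 CPM in CCA tumors. For 22 of the 37 genes all YAP-SY CCA tumors lay below all YAP-SY mixed tumors, against 12.1% of all genes, and for none did they all lie above, against 7.99%. The count of 8 was 0 in a fit of these groups alone and 0 with limma-voom, and 20 (19 lower, 1 higher) with DESeq2. It was 0 without YAP-SY CCA tumor 6 or YAP-SY mixed tumor 5, 1 without YAP-SY CCA tumor 1, 4 without tumor 3 or 4 of YAP-S CCA, and 5 without either tumor 5 of YAP-S CCA or tumor 8 of YAP-SY CCA. Calls over all genes changed too, from 532 to 0 in the fit of these groups alone, 16 with limma-voom and 1834 with DESeq2. Over all genes, 0 were called without YAP-SY CCA tumor 6, 113 without YAP-SY mixed tumor 5 and 109 without YAP-SY CCA tumor 1. In the remaining fits that left out a tumor named here, 215 to 319 of all genes were called.

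Individual tumors differed within groups. YAP-S mixed tumor 7 had the highest value of all 12 tumors for 25 of the 37 genes and YAP-S CCA tumor 5 for 7. YAP-SY CCA tumor 6 was the lowest for 20 and tumor 1 for 15. By group mean, YAP-S CCA was highest for 26 genes, YAP-S mixed for 9 and YAP-SY CCA for 2, and YAP-SY CCA was lowest for 35. The median ratio of highest to lowest tumor within a group was 1.201 in YAP-S CCA, 1.48 in YAP-SY CCA (36 genes, without Orc1), and, in mixed tumors, 1.75 with YAP-S and 1.47 with YAP-SY. The widest genes were Ccne1 (2.25), Cdt1 (3.50), Uhrf1 (2.56) and Cdt1 (2.45) in the same order.

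Other genes of the same processes were read from 7 lists of 125 genes, all of which were tested. Their shares stand beside the 20.8% lower and 18.3% higher of all genes in the same comparison. Mitosis genes were lower in YAP-SY CCA for 15 of 15, with a median of -1.24. Mybl2, a regulator of mitotic genes, fell by 2.34, Aurkb, a mitotic kinase, by 1.89 and Top2a, which untangles copied DNA, by 1.58. The proliferation marker Mki67 fell by 1.24. No mitosis gene passed in mixed tumors, where 4 of the 15 had an unadjusted p under 0.05 and the median was -0.44.

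Of 38 other replication factors 18 fell (47.4%) and 4 rose (10.5%), with a median of -0.46. Cdc7, the kinase that fires origins, fell by 2.25, Prim2 of the primase by 1.09 and Dscc1 of an alternative clamp loader by 2.26. The 4 that rose were Dna2, a nuclease and helicase (0.51), Orc3 of the origin complex (0.51), Gins4 (0.42) and Pole3 (0.40). So members of the GINS and origin complexes were called in both directions. Gmnn, the inhibitor of Cdt1, had -0.26 and did not pass.

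Of 21 E2F, RB and G1 cyclin genes 7 fell (33.3%) and 1 rose (4.76%). In all 38.1% of them were called, close to the 39.1% of all genes, so the count of calls does not set this list apart. The D cyclins Ccnd1 and Ccnd2, which drive RB phosphorylation, fell by 2.08 and 1.36, cyclin A2 (Ccna2) by 1.25 and the RB relative Rbl1 by 1.43. Rbl2, the RB relative of resting cells, rose by 0.66 on the log2 scale. The repressive factor E2f7 fell by 1.18, while E2f8 had 0.55 and did not pass (edgeR adjusted p = 0.262). Inhibitors of cyclin-dependent kinases fell as well, 6 of 7, among them Cdkn1a by 1.55 and Cdkn2b by 2.48. Cdkn2a had a log2 fold change of -5.58, from 2.02, 1.52 and 1.80 CPM to 0, 0.0839 and 0.0278 CPM, so its size is poorly fixed.

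Nucleotide synthesis outside the 4 genes above had 9 of 20 genes lower (45%) and 5 higher (25%), with a median of -0.10; the higher share was near the 18.3% of all genes. Among those that rose, Shmt1 and Mthfd1 of one-carbon metabolism rose by 1.06 and 0.72, Paics of purine synthesis by 0.87 and Tk2, the mitochondrial thymidine kinase, by 0.40. Dctd, which supplies the substrate of thymidylate synthase, fell by 3.21 and Mthfd2, a mitochondrial folate enzyme, by 1.87. All 6 hepatocyte markers rose in the same comparison, and their part was not tested. Replication stress and fork repair had 7 of 15 lower (46.7%) and 1 higher (6.67%), with a median of -0.55: Chek1, the kinase that restrains stressed cells, fell by 1.87, Brca1 by 1.51 and Exo1, a nuclease, by 2.13, while Rad17, a checkpoint clamp loader, rose by 0.45. Of 9 other chromatin copying genes 5 did not pass, and the median was 0.0084; the 44.4% called were near the 39.1% of all genes. Asf1b, Hells and Dnmt1, the maintenance methyltransferase, fell by 1.66, 1.41 and 0.95, and the histone chaperone Rbbp4 rose by 0.45. In mixed tumors no gene of these lists passed edgeR's test, and outside mitosis 1 inhibitor and 1 nucleotide synthesis gene had an unadjusted p under 0.05.

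**Figure D4:**
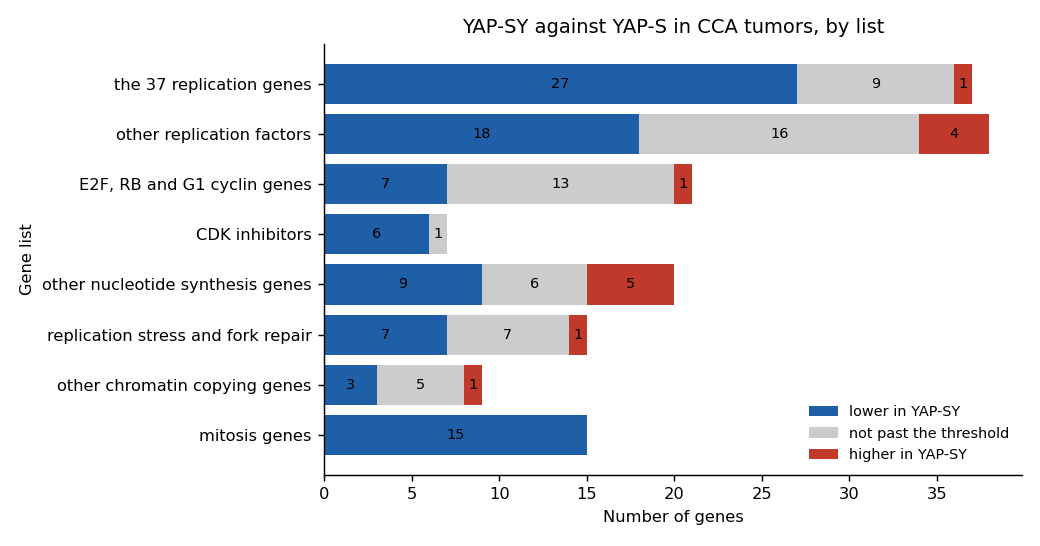
Number of genes (horizontal axis) called lower, not past the threshold or called higher in YAP-SY CCA against YAP-S CCA tumors, for the 37 replication genes and 7 lists of other genes (rows). All 15 mitosis genes are in the lower class, and the nucleotide synthesis list has 9 lower and 5 higher.

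SB1 cells held the replication genes at higher levels than the tumors. SB1 was counted in a table of its own, so levels are set side by side and no test was made. Summed CPM of the 37 genes was 6626, 5912 and 5095 in the 3 samples, 5878 ± 766 (SD, n = 3), against 482 to 823 in the means of the 4 tumor groups. As a share of all counts they took 0.5114% to 0.6644% in SB1 and 0.0349% to 0.1145% in the tumors. Of the bile duct markers the cells carried Krt19 at a mean of 1429 CPM, while Epcam was near 0 (0.236 CPM). Of the 6 hepatocyte markers Alb stood at 779 CPM, Hnf4a at 54.8 and Apob at 4.43 CPM, and Cps1 and Cyp2e1 were near 0 (0.238 and 0.244 CPM), with Ttr at 16.83 to 24.98 CPM over the 3 samples. Fibroblast genes were present as well, with Dcn at 245, Col1a1 at 117 and Pdgfrb at 63.8 CPM. Summed CPM in the 3 samples was 2710.7 to 3153.1 for cholangiocyte, 687.74 to 1192.1 for hepatocyte, 457.91 to 612.79 for fibroblast and 42.889 to 74.225 for leukocyte markers. Most of the leukocyte sum was Csf1r (61.2, 36.3 and 65.9 CPM), while Ptprc was at 0.0379 CPM on average and Adgre1, Cd3e and Ms4a1 were at 0. SB1 thus held genes of each of these 4 lists.

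For 36 of the 37 genes every SB1 sample lay above every tumor. The share of all genes with this order and the ratio over all genes were not computed. Neither the count nor the ratios that follow therefore set these genes apart. SB1 samples and tumors were also scaled separately. The mean in SB1 divided by that in YAP-S CCA had a median of 7.47 over the genes and ranged from 2.62 for E2f1 to 20.1 for Orc1. The exception was Mcm10, at 129, 118 and 105 CPM in SB1, which overlapped YAP-SY CCA tumor 6 at 108 CPM. Its ratio of 2.71 was among the lowest, next to E2f1 and Pola1 (2.74). By length, Pcna (136 RPKM), Rrm2 (134), Mcm5 (107), Mcm3 (107) and Mcm7 (101) led in SB1. Mcm10 at 15.3 RPKM ranked 30 of 37 there, against rank 3 in YAP-SY CCA tumors. Pola1 (7.10 RPKM), Ccne2 (8.88) and Orc1 (8.96) were lowest in SB1, and Orc1 was the lowest of the 37 in each tumor group.

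**Figure D5:**
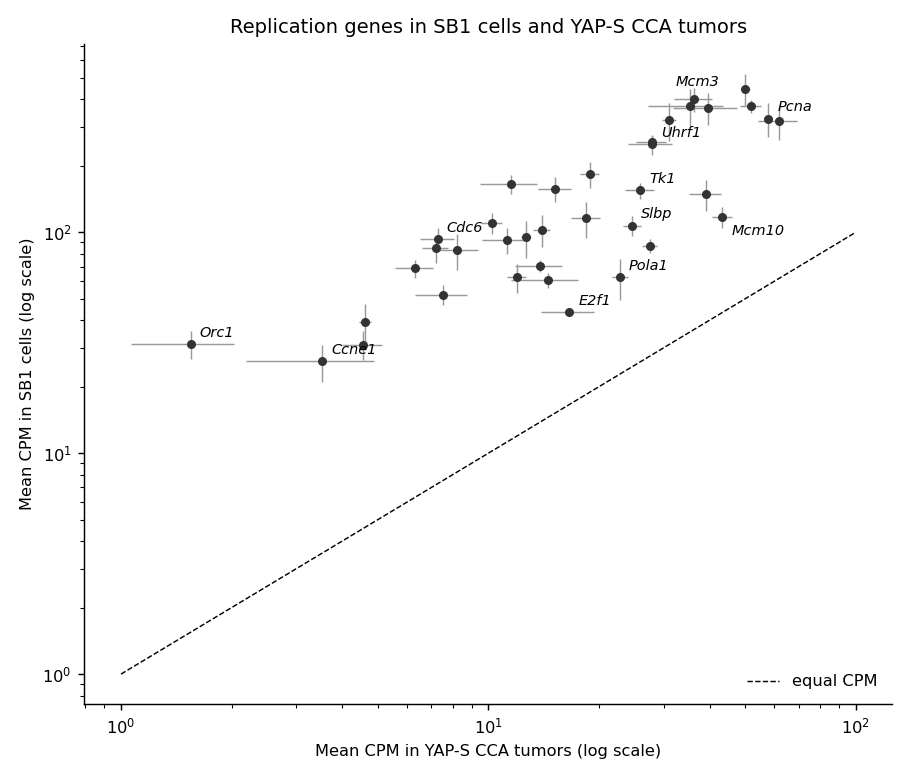
Mean CPM of each of the 37 genes (points) in SB1 cells against YAP-S CCA tumors, both axes on log scales; bars are the SD of 3 samples and the dashed line marks equal CPM. Every point lies above the line, with E2f1, Mcm10 and Pola1 the closest to it by ratio.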

How the data were processed

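RNA from 18 samples, 12 tumors and 6 cell line samples, was sequenced from poly(A) libraries per the labels' protocols. The authors deposited a table of counts per gene for the tumors, called corrected; what was corrected is not stated, and the values are whole numbers. They deposited raw counts for SB1 in a separate table, in which 3 columns match no sample label and were not used; the 3 SY1 samples were not analysed here. STAR and build mm10 are named in the submitters' processing notes; the counting tool, its strand setting and the annotation are not given in the sources used here. From the tables, 27 symbols turned into dates were restored. Genes were filtered with filterByExpr by group, scaled by TMM and fitted over all 12 tumors with 1 term per group (R 4.3.3, edgeR 4.0.16). Benjamini-Hochberg adjustment ran over all tested genes. RPKM used the table's gene lengths. Alternatives were other scalings, filters, fits of the groups compared, DESeq2 1.42.0, limma 3.58.1 and leaving out each tumor. The fits were tested on simulated data, where DESeq2 made the largest share of false calls among the 3 tools. The accepted share of false calls was raised after DESeq2 exceeded the first bound. That simulation changed far fewer genes than were called between the CCA groups, evenly up and down and with a fixed spread. It therefore does not rank the tools on these data.

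The 37 genes and all lists were chosen with earlier results of these data known. In each role the genes with the smallest and largest p in the CCA comparison are given in every tumor, with those called against the majority or with the smallest p of another comparison; Orc1, Cdt1, Rfc4 and Mcm4 were shown in addition after their values were seen. Each other list gives its 3 smallest p, those called against the majority and a panel of 8 genes; 1 gene so chosen is not reported here. Genes sharing exon bases with another (15 of 37) are uncertain where strand was not used. Tumor numbers 3, 5 and 9 recur in both YAP forms, but the labels do not say that they mark a shared animal, day or litter. As a check, each gene was centred within its group and tumors with equal numbers were correlated: r was 0.228, 0.572 and 0.112 in log2(CPM + 1), and 0.189, 0.384 and 0.0938 with edgeR's log CPM. Pairs of different numbers had a median r of -0.0441 in log2(CPM + 1), from -0.404 to 0.405. In log2(CPM + 1) the pair numbered 5 lay above that range, and the pairs numbered 3 and 9 lay within it and above its median. No such range was computed with edgeR's log CPM, so the values in that measure have no reference.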

Additional observations from a re-analysis of the deposited data

Results flagged for a closer look

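For 10 replication genes the effect of YAP-SY in CCA differed from that in mixed tumors by edgeR's quasi-likelihood interaction test with Benjamini-Hochberg adjustment. The differences (effect in CCA minus effect in mixed tumors, log2) were -1.88 for Lig1, -1.55 for Mcm4, -2.39 for Uhrf1, -1.58 for Mcm3 and -1.51 for Mcm2. They were -1.65 for Chaf1b, -1.44 for Ccne2, -1.38 for Mcm6, -0.965 for Pola1 and -1.45 for Mcm5. Adjusted p ran from 0.00741 for Lig1 to 0.036 for Mcm5. In mixed tumors the effects of the same genes lay between -0.306 (Mcm5) and 0.135 (Chaf1b).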

How the results depend on the processing

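The CCA count of 28 genes stayed between 23 and 36 under all 21 other settings (23 to 31 when leaving out a tumor), the mixed count stayed at 0, and no called gene changed direction. Over both histologies the count of 23 became 36 with library size alone, 14 without YAP-SY CCA tumor 8 and YAP-SY mixed tumor 3 (whose descriptions carry another prefix; chosen after seeing the data), and 14 to 26 when leaving out a tumor. The 10 interaction calls became 26 with library size alone, 18 with DESeq2 and 4 to 19 when leaving out a tumor. The 8 calls of CCA against mixed within YAP-SY became 22 with library size alone, 20 with DESeq2, 13 with no filter, 0 with limma-voom, 0 in a fit of the groups compared, and 0 to 11 when leaving out a tumor. Within YAP-S limma-voom called 2. Calls over all genes changed between these settings as well. The cause was not tested, except that library size alone moves the median of all genes. The mean SB1 sum ran from 5496 to 6257 when leaving out a sample. Because the tumor numbers recur across forms, a replicate block was fitted as a random effect in limma (a fixed block leaves the contrast without an estimate): it called 24 over both histologies and 11 in the interaction (the latter chosen after seeing the data), and ended no call among those 2 results but that of Ccne2 in the interaction. No paired analysis was possible for the other comparisons because their groups share fewer than 2 numbers. Low counts limit Orc1, which a stricter filter removed.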
